A study of Mus musculus with 18 samples.

Results

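The clustered protocadherins were followed in 18 RNA-seq libraries of C2C12 cells, a line of mouse myoblasts. They were taken as every gene whose symbol in the deposited table names an alpha, beta or gamma protocadherin, which gave 24 of 35275 genes. Of these, 22 belonged to the beta cluster, 1 to the alpha cluster (Pcdha10) and 1 to the gamma cluster (Pcdhga12). Members were chosen by their symbol, but the family itself was selected on its expression values by line and medium in these same libraries. Its changes and their p-values, from a fit of all genes, are therefore a description and not independent evidence, and counts of changed members stand beside the share of all genes called in the same comparison. No such share is given for members called in more than 1 comparison or under alternative settings.

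The study crossed 3 lines with 2 media. Control cells, labelled wild-type, cells overexpressing the spliced form of the long noncoding RNA MUNC (MUNC spliced) and cells overexpressing its genomic form (MUNC genomic) were each collected in growth medium with 20% FBS at subconfluence (GM) and after 3 days in 2% horse serum (DM3). Differentiation is used below only as a name for DM3 against GM, whatever the muscle markers of a line did. Each of the 6 groups held 3 libraries of polyadenylated RNA, labelled as biological replicates. All groups came from a C2C12 stock labelled PAX7 NEG. MUNC itself was not matched to a row of the table, so its level was not checked here. The labels do not say how the overexpressing lines were made or whether each was 1 clone, so a difference between lines cannot be told apart from a difference between cell populations.

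Clustered protocadherins are cadherin-related adhesion proteins of the cell surface, best known from neurons, where each cell uses its own combination of them and like combinations recognise each other. In the alpha and gamma clusters each variable exon has its own promoter and is spliced to constant exons shared by the cluster, whereas beta genes have no shared constant exons. Which promoters are used is known to depend on CTCF and cohesin, on DNA methylation and on the chromatin protein SMCHD1.

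The 3 clusters lie in tandem on the plus strand of chromosome 18. On GRCm38 the GENCODE M21 annotation placed the alpha cluster at 36930184 to 37187661, the beta cluster at 37264938 to 37524479 and the gamma cluster at 37661793 to 37841873. It listed 14 alpha, 22 beta and 22 gamma identifiers, of which the deposited table held 1, 22 and 1. The row called Pcdha10 (ENSMUSG00000007440) is named Pcdha11 in M21, and the row called Pcdhga12 (ENSMUSG00000023036) is named Pcdhgc4. Whether these 2 rows counted a single isoform or the exons of a whole cluster is not given in the sources used here. They are therefore written as the alpha row and the gamma row, and isoform choice in those clusters was not analysed here.

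Values are FPM, reads scaled to library size and not to gene length. Depth was 38416702 to 68788327 reads per library, and 3 reads were worth at most 0.0757 FPM. Replicates correlated at r = 0.98 to 0.996 over log2(FPM + 1) of 13869 tested genes, and libraries of different groups at 0.868 to 0.975. A gene was tested where at least 3 libraries reached 0.5 FPM, which 21 of the 24 members did. Pcdhb1 had 0 reads in every library, and Pcdhb4 and Pcdhb6 reached 0.5 FPM in 2 libraries each. Just inside the limit were Pcdhb13 with 4 libraries and Pcdhb10 with 6, and both passed through the groups where they are high. Pcdhb13 reached 0.5 FPM in MUNC spliced libraries alone and Pcdhb10 in the 6 DM3 libraries of the MUNC lines alone. Differences of those groups from the others were thus built into their passing, and their calls below support nothing. The counts of called members below still include them wherever they were called.

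Markers of the labelled cell type were unevenly present. Of 11 myoblast and myotube markers, 5 averaged at least 0.5 FPM in control GM and in control DM3, against 10 and 6 in MUNC spliced and MUNC genomic GM and all 11 in both these lines in DM3. The list's members differed in direction. Myod1, the master regulator of the muscle lineage, averaged 0.0285 ± 0.0493 FPM (SD, n = 3) in control GM and 0.0993 ± 0.112 in control DM3, against 12.4 ± 4.85 and 28.6 ± 21.5 in MUNC spliced cells. Myf5, a related factor of myoblasts, averaged 71.8 ± 8.50 FPM in control GM, 58.7 ± 5.33 in MUNC spliced GM and 26.7 ± 3.04 in MUNC genomic GM. The 11 markers summed to 6827 to 10636 FPM in control GM, 4962 to 7587 in MUNC spliced GM and 5071 to 7446 in MUNC genomic GM. Vim alone averaged 8863 FPM in control GM, against 71.8 for Myf5, so the sum there mostly followed Vim. In control cells Des, Myf5 and Tnnt1 were called higher in DM3 than in GM, and Acta1 and Vim lower. Ckm, Myh3, Mymk, Mymx, Myod1 and Myog were not called there. Among 11 neuronal markers Gad1 had 0 reads in every library and Rbfox3 and Snap25 at most 2, whereas the neurofilament genes Nefl and Nefm averaged 265 ± 61.6 and 161 ± 71.1 FPM in control GM. Bulk RNA was measured, so fewer cells of a type and less RNA per cell cannot be told apart.

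The alpha, beta and gamma values differed in how they followed line and medium. The gamma row and the summed beta genes rose with differentiation in all 3 lines, whereas the alpha row differed mainly between lines. In the alpha row, control GM libraries held 0.461, 0.159 and 0.0461 FPM and control DM3 libraries 0.288, 0.276 and 0.368 FPM. MUNC spliced libraries held 2.40, 1.92 and 1.42 FPM in GM and 1.82, 1.93 and 2.50 FPM in DM3. MUNC genomic libraries held 25.8, 22.7 and 15.7 FPM in GM and 14.0, 12.6 and 14.5 FPM in DM3. No library of any line overlapped with those of another line in this row.

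The summed FPM of the 22 beta genes was 32.9, 32.8 and 26.1 in control GM and 102, 112 and 99.8 in control DM3. In MUNC spliced cells it was 60.6, 95.7 and 58.0 in GM and 142, 170 and 174 in DM3. In MUNC genomic cells it was 34.8, 40.2 and 23 in GM and 142, 145 and 137 in DM3. The DM3 libraries lay above the GM libraries in each line, and in GM the MUNC spliced libraries lay above those of both other lines while control and MUNC genomic overlapped. Replicate 2 of MUNC spliced GM stood above its group in each of the 11 genes from Pcdhb12 to Pcdhb22, and without it the group's beta sum averaged 59.3 FPM in place of 71.4.

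The gamma row held 355, 380 and 401 FPM in control GM and 797, 948 and 951 FPM in control DM3. It held 461, 506 and 372 FPM in MUNC spliced GM and 665, 895 and 860 FPM in DM3. MUNC genomic libraries held 288, 307 and 296 FPM in GM and 660, 830 and 897 FPM in DM3. In each line the DM3 values were all above the GM values, and in DM3 the 3 lines overlapped.

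**Figure D1:**
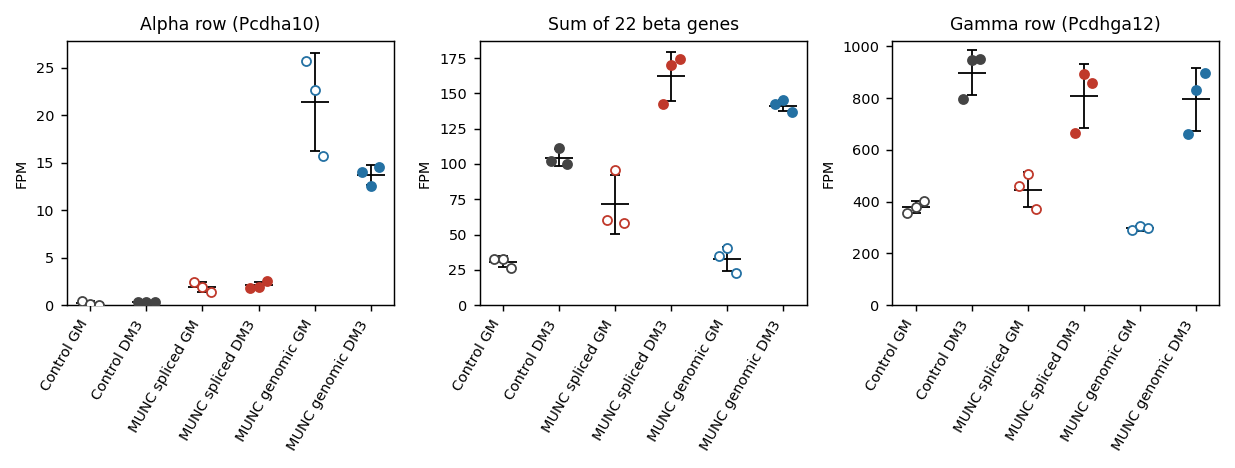
FPM of the alpha row, of the 22 beta genes summed and of the gamma row in each of the 6 groups (x axis), with 1 point per library and the mean and SD as bars, open for GM and filled for DM3. The alpha row is near 0 in control libraries and 12.6 to 25.8 FPM in MUNC genomic libraries, and the beta and gamma values are higher in DM3 than in GM in every line.

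Nearly all measured members were higher in DM3 than in GM in control cells. Of the 21 tested members, 19 were higher and 0 lower in DM3 by limma at a Benjamini-Hochberg adjusted p under 0.05, where 29.6% of all tested genes were higher and 28.6% lower. Log2 changes are given throughout for log2(FPM + 1), so those of low genes are understated. The members' median was 0.95, against 0.02 over all tested genes. All DM3 values exceeded all GM values for 20 members, which was so for 31.9% of all tested genes. The 2 members not called were the alpha row and Pcdhb13, which had 0, 0 and 1 reads in control GM and 1, 3 and 2 in control DM3. The summed FPM of the 11 neuronal markers moved the other way, from 397 to 696 in control GM to 82.4 to 88.9 in control DM3. That fall was mostly in Nefl (265 to 14.4 FPM) and Nefm (161 to 3.83 FPM). These, Tubb3 and Stmn2 were called lower, whereas Syn1 (56.2 to 61.6 FPM), Slc17a7 and Map2 were not called and the rest were not tested. The neuronal markers thus did not move as a set.

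Pcdhb17 had the highest change on the log2(FPM + 1) scale. It held 8.11, 7.47 and 6.44 FPM in control GM and 26.7, 28.7 and 24.2 FPM in control DM3, so the groups were far apart. The mean was 3.61 times higher in DM3, with a log2 change of 1.72 ± 0.165 (SE, n = 3 a group) and a limma adjusted p of 6.19e-07. By ratio of means, members at lower levels stood above it, among them Pcdhb9 at 7.54. Pcdhb16 went from 6.16, 7.95 and 4.36 FPM to 20.8, 20.6 and 19.4 FPM, a log2 change of 1.60. The lowest called change was that of Pcdhb10, from 9, 0 and 0 reads to 13, 25 and 17 reads, with a log2 change of 0.36. Its limma adjusted p was 0.0188, and 0.0585, 0.0629 and 0.0888 without control GM replicate 2, control GM replicate 3 or control DM3 replicate 2, so this call rested on single libraries. The gamma row rose 2.37-fold, by 1.24 ± 0.145 on the log2 scale (limma adjusted p = 3.39e-06).

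In MUNC spliced cells 17 of the 21 members were higher and 0 lower in DM3 than in GM, where 17.2% of all tested genes were higher and 18.4% lower. The 17 include Pcdhb10 and Pcdhb13, which passed the filter through groups where they are high. The median change of the members was 0.85, against -0.01 for all genes. On the log2(FPM + 1) scale Pcdhb20 rose most, from 4.47, 7.44 and 3.88 FPM to 14.6, 17.7 and 15.6 FPM, with no overlap. Its log2 change was 1.47 ± 0.217 (limma adjusted p = 0.000118) and its ratio of means 3.03. By ratio of means, members at lower levels stood above it, among them Pcdhb9 at 6.39 and Pcdhb11 at 4.15, picked out after their values were seen. The lowest call was Pcdhb15, at 2.20, 3.94 and 2.52 FPM in GM and 3.25, 4.65 and 5.33 FPM in DM3. These groups overlapped, the log2 change was 0.48, and its limma adjusted p of 0.0357 became 0.104 to 0.16 without any 1 of 4 libraries (replicates 1 and 3 of GM, replicates 2 and 3 of DM3). Pcdhb14 was likewise called (0.74, limma adjusted p = 0.0165) but not without GM replicate 1, GM replicate 3 or DM3 replicate 3, where the limma adjusted p was 0.0614 to 0.0841.

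In MUNC genomic cells 19 of the 21 members were higher and 1 lower in DM3, against 26.3% and 25.1% of all tested genes. Pcdhb10 and Pcdhb13 are among the 19. Here the members' median was 1.41, against 0.02 for all genes. Pcdhb20 again had the highest change on that scale, from 1.40, 2.33 and 0.714 FPM to 11.7, 12.4 and 10.3 FPM. The ratio of means was 7.75 and the log2 change 2.38 ± 0.217 (limma adjusted p = 8.06e-07). Here too members at lower levels had higher ratios, among them Pcdhb9 at 10.6. The member that fell was the alpha row, by 0.58 on the log2 scale with an adjusted p of 0.0112 by limma. That call was lost without MUNC genomic GM replicate 1 (limma adjusted p = 0.0653), and edgeR gave an adjusted p of 0.112. Pcdhb13, with 5, 3 and 3 reads in GM and 21, 22 and 17 in DM3, was called at 0.36 (limma adjusted p = 0.0366) but not after leaving out any 1 of the 6 libraries (0.0651 to 0.0964). Higher in DM3 in all 3 lines were 16 members, namely the gamma row and 15 beta genes, Pcdhb10 among them.

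**Figure D2:**
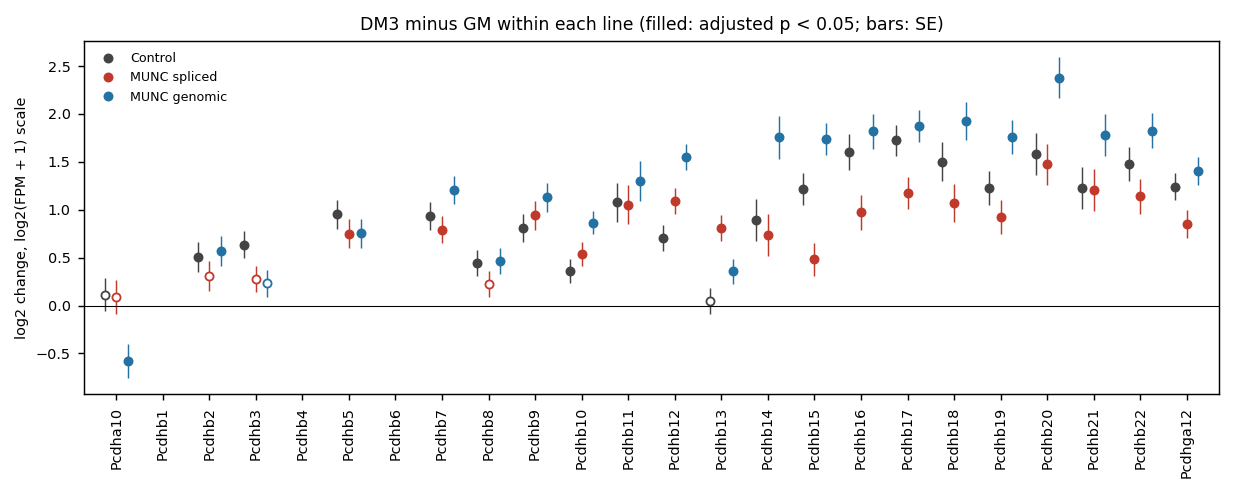
log2 change from GM to DM3 (y axis, on the log2(FPM + 1) scale) for the members in chromosomal order (x axis) in control, MUNC spliced and MUNC genomic cells, with SE bars and filled points where the limma adjusted p was under 0.05; Pcdhb1, Pcdhb4 and Pcdhb6 were not tested. Nearly all points lie above 0, from Pcdhb20 in MUNC genomic cells at 2.38 down to the alpha row in the same line at -0.58.

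Other genes known for a part in protocadherin promoter use were followed beside the members, from a list of 28 regulators of which 27 were in the table and tested. On differentiation of control cells 5 of these were higher and 12 lower, against 29.6% and 28.6% of all tested genes. Ctcf, which encodes the insulator protein CTCF, averaged 132 ± 9.36 FPM in GM and 76.2 ± 3.16 in DM3, a fall by 0.78 on the log2 scale (limma adjusted p = 2.89e-06). The cohesin subunit gene Rad21 fell by 0.80, Smchd1 by 0.74, the maintenance methyltransferase gene Dnmt1 by 1.79 and the de novo methyltransferase gene Dnmt3b by 1.16, whereas Dnmt3a rose by 0.51 (limma adjusted p = 0.0398). Uhrf1, which recruits DNMT1 to replicating DNA, had the lowest change at -3.99. MUNC spliced cells had 1 regulator higher and 9 lower in DM3 (17.2% and 18.4% of all tested genes). MUNC genomic cells had 3 higher and 11 lower (26.3% and 25.1%). Ctcf, Rad21, Smchd1 and Dnmt1 were lower in DM3 in all 3 lines, while the members were higher. Whether either movement bears on the other was not tested.

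Both MUNC lines were then compared with control within each medium. These comparisons share their control libraries, so their values stand side by side and are not counted as separate evidence. The limma p-values treat the libraries as unpaired, except where a block is named. The alpha row had the highest change of any member in MUNC genomic cells. Its mean was 96.4 times that of control in GM, where the 3 control libraries held 27, 9 and 3 reads, and 44.1 times that of control in DM3, where they held 15, 14 and 20. Without control GM replicate 1 the GM ratio was 208. On the log2(FPM + 1) scale the changes were 4.18 ± 0.176 and 3.49 ± 0.176, with limma adjusted p of 1.72e-11 and 1.49e-10. In MUNC spliced cells the alpha row was 8.63 and 6.70 times control in GM and in DM3. Without control GM replicate 1 the GM ratio of this line was 18.7. The log2 changes were 1.26 (limma adjusted p = 5.02e-05) and 1.23 (3.78e-05). The authors' deposited table put the log2 fold change of this row in MUNC genomic cells at 6.64 in GM and 5.47 in DM3, on a scale without the added 1 FPM.

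In GM, MUNC spliced cells had 11 of the 21 members higher than control and 0 lower, where 18.2% of all tested genes were higher and 17.3% lower. The 11 were the alpha row and 10 beta genes. Pcdhb14 had the highest change, with 6.16, 11 and 7.30 FPM against 1.49, 1.13 and 0.937 FPM in control. The ratio of means was 6.87 and the log2 change 2.04 ± 0.221 (limma adjusted p = 3.3e-06). Pcdhb22 followed at 9.82, 13.9 and 7.97 FPM against 3.04, 2.58 and 2.83 FPM, a log2 change of 1.57. Pcdhb20 held 4.47, 7.44 and 3.88 FPM against 1.45, 1.22 and 0.922 FPM, a log2 change of 1.48. None of these 3 genes had overlapping libraries.

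The lowest called change in that comparison was Pcdhb18, at 3.68, 5.59 and 4.15 FPM against 2.46, 2.88 and 2.66 FPM in control. Its log2 change of 0.56 had a limma adjusted p of 0.039, and this became 0.0569 to 0.172 without any 1 of 5 libraries, the exception being MUNC spliced GM replicate 1. Pcdhb17 (0.62, limma adjusted p = 0.00861) was not called without MUNC spliced GM replicate 2, where the limma adjusted p was 0.0549. Without that library 9 members were called in place of 11. The summed FPM of 7 fibroblast markers was also higher in this line, at 8785 to 14030 in MUNC spliced GM against 5046 to 7560 in control GM, although Thy1 had no reads in either. In control GM the collagen genes Col1a1 and Col1a2 averaged 2215 and 3801 FPM and Postn, the next highest, 69.6. The sum there was thus mostly collagen. Whether these markers bear on the protocadherin values was not tested.

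In DM3, MUNC spliced cells had 9 members higher than control and 0 lower, against 22.3% and 21.0% of all tested genes. Pcdhb10 and Pcdhb13, which passed the filter through groups that include this one, are among the 9. Pcdhb14 was again highest, with 11.8, 14.1 and 16 FPM against 3.61, 2.17 and 3.48 FPM. Its log2 change was 1.88 ± 0.221 (limma adjusted p = 4.77e-06). Pcdhb12 held 3.06, 4.36 and 4.34 FPM against 0.903, 0.868 and 1.05 FPM, a log2 change of 1.33. The lowest call was Pcdhb10 at 0.45, a gene that passed the filter through its DM3 libraries of the MUNC lines, with 30, 54 and 58 reads against 13, 25 and 17 in control. edgeR gave this gene an adjusted p of 0.111. The 7 fibroblast markers summed to 11504 to 13112 FPM in this group and to 5532 to 6435 FPM in control DM3. In control DM3 Col1a1 and Col1a2 averaged 1928 and 3703 FPM, so that sum too was mostly collagen. The members higher than control in both media numbered 7, namely the alpha row, Pcdhb12, Pcdhb14, Pcdhb19, Pcdhb20, Pcdhb21 and Pcdhb22.

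The most abundant beta genes in control cells changed differently from these. Pcdhb16 held 18.6, 21.6 and 25.3 FPM in MUNC spliced DM3 and Pcdhb17 25.2, 28.2 and 29.8 FPM, and both overlapped with their control DM3 libraries. In GM, Pcdhb16 held 10.3, 13.5 and 8.44 FPM in MUNC spliced cells, above all control libraries, with a log2 change of 0.72 (limma adjusted p = 0.00644, and 0.064 with these groups fitted alone).

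In MUNC genomic cells in GM, 6 members were higher and 2 lower than control, where 12.2% of all tested genes were higher and 14.5% lower. Without control GM replicate 1, or without control GM replicate 2, 5 members were called in place of 8. Besides the alpha row, the higher members were Pcdhb7, Pcdhb8, Pcdhb12, Pcdhb14 and Pcdhb15. Pcdhb14 held 3.21, 4.76 and 2.21 FPM against 1.49, 1.13 and 0.937 FPM, a log2 change of 0.97 (limma adjusted p = 0.00357). Pcdhb15 held 2.09, 2.36 and 1.72 FPM against 0.956, 0.938 and 0.599 FPM, a log2 change of 0.74. Pcdhb12 was called at 0.39 (limma adjusted p = 0.0444), but only MUNC genomic GM replicate 3 could be left out without losing the call. Without each of the other 5 libraries the limma adjusted p was 0.0743 to 0.208.

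Pcdhb17 and Pcdhb18 were the members lower than control in that comparison. Pcdhb17 held 3.61, 4.25 and 2.86 FPM against 8.11, 7.47 and 6.44 FPM, so that the groups did not overlap. It fell by 0.87 ± 0.165 on the log2 scale, with an adjusted p of 0.000883 by limma. Pcdhb18 held 1.76, 1.32 and 0.567 FPM against 2.46, 2.88 and 2.66 FPM and fell by 0.76 (limma adjusted p = 0.00988). The gamma row, at 288 to 307 FPM against 355 to 401 FPM, lay below control without overlap. Its limma adjusted p was 0.0876, and 0.0319 with the replicate number as a block.

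In DM3, MUNC genomic cells had 11 members higher and 2 lower than control, against 19.3% and 20.9% of all tested genes. The 11 include Pcdhb13 and Pcdhb10, which passed the filter through its DM3 libraries of the MUNC lines. After the alpha row, Pcdhb14 had 13.7, 12.8 and 13.7 FPM against 3.61, 2.17 and 3.48 FPM, a log2 change of 1.84 ± 0.221 (limma adjusted p = 5.2e-06). Pcdhb15 had 9.34, 9.44 and 8.80 FPM against 3.15, 3.49 and 3.08 FPM, a log2 change of 1.27. Pcdhb12 had 3.92, 3.66 and 3.16 FPM against 0.903, 0.868 and 1.05 FPM, a log2 change of 1.24. The lower members were Pcdhb17, with 16.5, 15.9 and 14.5 FPM against 26.7, 28.7 and 24.2 FPM, and Pcdhb3, with 0.514, 0.512 and 0.254 FPM against 0.691, 1.64 and 0.995 FPM. Pcdhb17 fell by 0.73 and Pcdhb3 by 0.54 (limma adjusted p = 0.00218 and 0.00518), and neither had overlapping libraries. Pcdhb13 (0.39, limma adjusted p = 0.0305) was not called after leaving out any 1 library, and Pcdhb22 (0.61, 0.0133) not without control DM3 replicate 3 (0.0526).

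Higher than control in both media in MUNC genomic cells were 6 members, the alpha row, Pcdhb7, Pcdhb8, Pcdhb12, Pcdhb14 and Pcdhb15, and lower in both was Pcdhb17. As given above, the GM call of Pcdhb12 rested on single libraries. In the authors' deposited table Pcdhb7 did not pass in GM (adjusted p = 0.0835), nor Pcdhb8 in DM3 (0.0517). Pcdhb17, the most abundant beta gene per length in control cells, had the lowest change in both media on the log2(FPM + 1) scale. By ratio of means to control, Pcdhb18 was lower in GM (0.456 against 0.487 for Pcdhb17) and Pcdhb3 lower in DM3 (0.385 against 0.589). Muscle markers of this line lay on both sides of control. Des, a muscle intermediate filament gene, averaged 476 ± 145 FPM in GM and 898 ± 99.5 in DM3 against 24.2 ± 8.37 and 77.5 ± 13.9 in control, whereas Myf5 averaged 26.7 ± 3.04 and 29.4 ± 8.17 against 71.8 ± 8.50 and 103 ± 7.59. Their part in the protocadherin values was not tested.

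**Figure D3:**
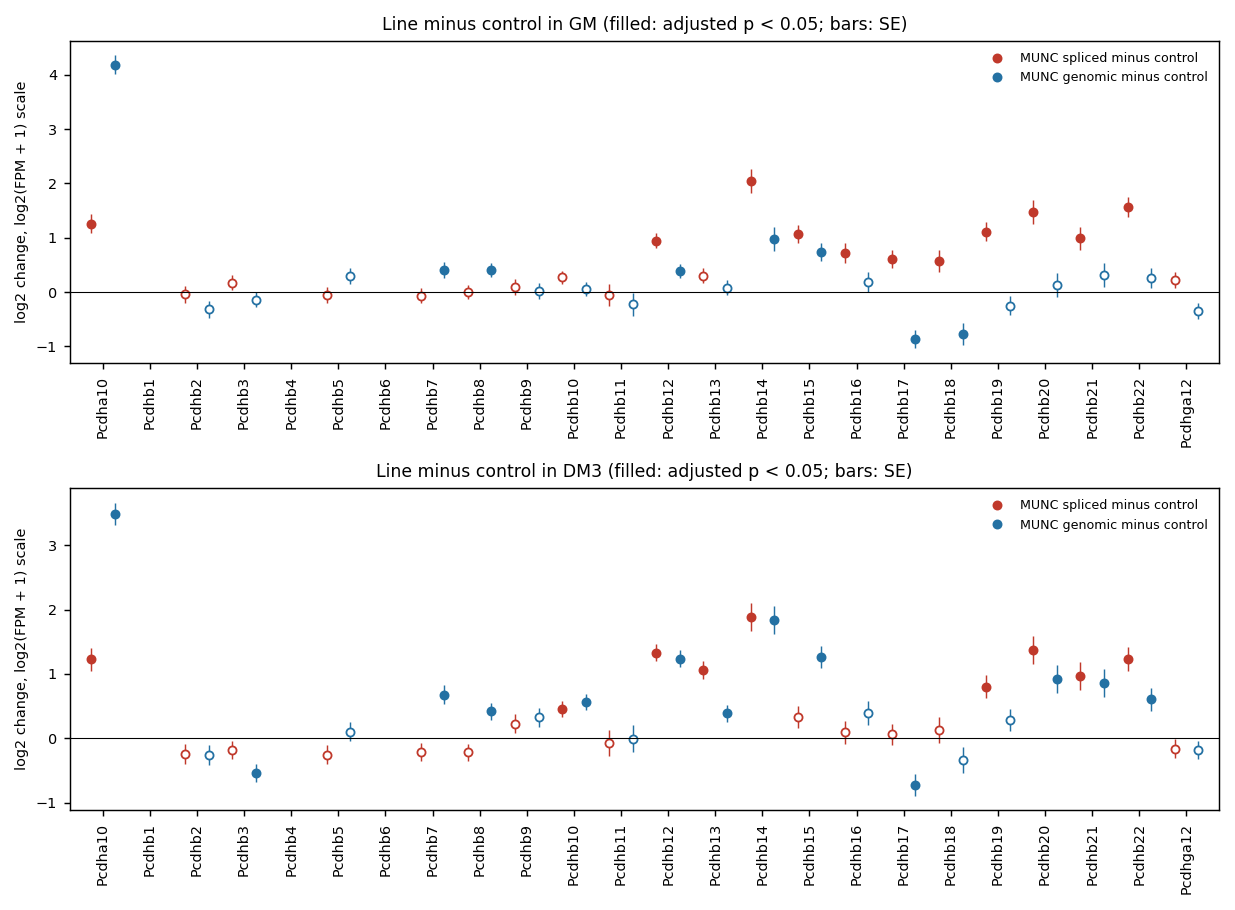
log2 change of each MUNC line against control (y axis, on the log2(FPM + 1) scale) in GM (upper panel) and in DM3 (lower panel) for the members in chromosomal order, with SE bars and filled points where the limma adjusted p was under 0.05. The alpha row in MUNC genomic cells stands at 4.18 and 3.49, Pcdhb14 is raised in both lines, and Pcdhb17 in MUNC genomic cells stands at -0.87 and -0.73.

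The forms of MUNC were compared with each other because calls against control do not test their difference. In GM, MUNC spliced cells exceeded MUNC genomic cells in 10 members and lay below them in 3, against 19.9% and 16.0% of all tested genes. Pcdhb17 differed most among the higher, with 9.79, 15.9 and 10.3 FPM against 3.61, 4.25 and 2.86 FPM, a log2 change of 1.49 ± 0.165 (limma adjusted p = 2.79e-06). The gamma row was higher in MUNC spliced cells by 0.57 (limma adjusted p = 0.00543). The lower members were the alpha row at -2.93, Pcdhb7 and Pcdhb8. Pcdhb16 and Pcdhb21 were called at 0.54 and 0.68 (limma adjusted p = 0.0302 and 0.0228), and neither was called without MUNC spliced GM replicate 2 (0.152 and 0.135) or without MUNC genomic GM replicate 3 (0.121 and 0.13). Pcdhb16 also lost its call without MUNC spliced GM replicate 1 (0.0581).

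In DM3 the split was 5 higher and 4 lower, against 23.4% and 20.8% of all tested genes. The higher members were Pcdhb3, Pcdhb13, Pcdhb17, Pcdhb19 and Pcdhb22, and the lower ones the alpha row, Pcdhb7, Pcdhb8 and Pcdhb15. Of these, Pcdhb13 passed the filter through MUNC spliced libraries alone. Pcdhb17 was highest at 0.79 ± 0.165 (limma adjusted p = 0.000998), and the alpha row lowest at -2.26. Pcdhb14 held 11.8 to 16 FPM in MUNC spliced and 12.8 to 13.7 FPM in MUNC genomic DM3, so these libraries overlapped although both lines exceeded control. The difference between the lines in Pcdhb14 was 0.05, with a 95% interval of -0.42 to 0.51. Pcdhb22 (0.62, limma adjusted p = 0.0103) was not called without MUNC spliced DM3 replicate 2 (0.0533).

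Whether a line responded to differentiation otherwise than control was tested as an interaction. For MUNC spliced it was called for 1 member, Pcdhb13, higher, where 7.43% of all tested genes were higher and 6.94% lower. Because Pcdhb13 passed the filter through MUNC spliced libraries alone, its interaction call supports nothing. For MUNC genomic it was called for 1 member, Pcdhb12, higher, against 3.56% and 5.25%. Pcdhb13 had 3, 37 and 3 reads in MUNC spliced GM and 51, 67 and 77 in DM3, against at most 3 reads in any control library. Pcdhb12 had 35, 49 and 18 reads in MUNC genomic GM and 198, 243 and 162 in DM3, against 9 to 15 and 44 to 57 in control. Neither interaction was called by edgeR (adjusted p = 0.871 and 0.66) or by DESeq2 (0.86 and 0.722). With the replicate number as a block, limma called 3 members for each line. The added members were Pcdhb15 and Pcdhb17, both lower, for MUNC spliced, and Pcdhb10 and Pcdhb20, both higher, for MUNC genomic.

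The composition of the beta signal was described by each gene's share of the summed beta FPM, which depends on transcript length and is read here only across groups. Pcdhb17 took 24.0% ± 1.08 (SD, n = 3) in control GM and 25.4% ± 1 in control DM3. It took 16.9% and 17.2% in MUNC spliced cells and 11.1% and 11% in MUNC genomic cells. No library of 1 line overlapped with another line in this share, and within each line the GM and DM3 ranges overlapped. The share of Pcdhb14 was 3.85% and 2.99% in control, 11.4% and 8.60% in MUNC spliced and 10.2% and 9.49% in MUNC genomic cells. Pcdhb22 took 14.8% and 14.9% in MUNC spliced cells against 9.32% and 9.22% in control, and Pcdhb15 took 6.46% and 6.5% in MUNC genomic cells against 2.69% and 3.10% in control. Because shares sum to a whole, a higher share of one gene lowers the others.

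**Figure D4:**
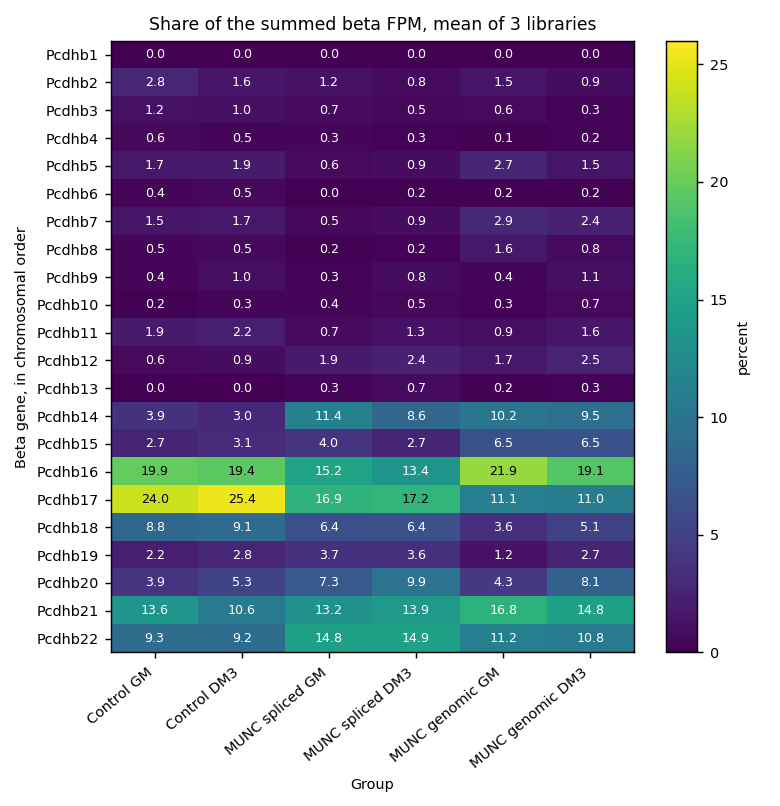
Share of the summed beta FPM in percent (colour and printed value) taken by each of the 22 beta genes in chromosomal order (rows) in the 6 groups (columns), as the mean of 3 libraries. Pcdhb17 falls from 24.0% and 25.4% in control to 11.1% and 11% in MUNC genomic cells, and Pcdhb14 is higher in both MUNC lines than in control.

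Levels between beta genes were compared per kilobase of annotated exon. Pcdhb17 had the highest level in control and MUNC spliced cells, at 1.57 FPM per kb in control GM, 5.69 in control DM3, 2.58 in MUNC spliced GM and 5.96 in MUNC spliced DM3. The gene next in order was Pcdhb16 in both control groups (1.18 and 3.88 FPM per kb), and the libraries of the pair overlapped in GM and not in DM3. Pcdhb16 was first in MUNC genomic cells, at 1.34 FPM per kb in GM and 5.16 in DM3. It was followed there by Pcdhb21 at 1.18 and 4.44 and by Pcdhb17 at 0.767 and 3.35, with no overlap between these neighbours in DM3 and overlap in GM. Pcdhb21 overlaps with Pcdhb22 in the annotation, so reads of the shared stretch could have been assigned to either or dropped. Between 0% and 12% of a beta gene's 50-base windows recur in another beta gene (median 4.26%), which could have moved reads between them in the same way.

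More beta genes passed 0.5 FPM after differentiation. At 0.5 FPM or more, 11 to 12 beta genes per library were present in control GM and 17 to 18 in control DM3. The ranges were 11 to 16 and 18 to 20 in MUNC spliced cells and 10 to 14 and 17 to 18 in MUNC genomic cells. With any read at all, 19 to 21 of the 22 were seen in every library. The leading 5 genes held 75.6% ± 2.17 of the beta signal in control GM and 65.2% ± 1.94 in MUNC genomic DM3, the highest and lowest group means.

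The changes of MUNC spliced cells against control were unevenly placed along the cluster. The split used here was chosen after the values had been seen and is a description. Of the 8 tested genes from Pcdhb2 to Pcdhb11, the proximal stretch, 0 differed between MUNC spliced and control in GM, whereas of the 11 genes from Pcdhb12 to Pcdhb22, the distal stretch, 10 were higher. In DM3 the counts were 1 of 8 (Pcdhb10) and 7 of 11, with Pcdhb13 among the latter. Of all tested genes 18.2% were higher and 17.3% lower in GM, and 22.3% and 21.0% in DM3. In MUNC genomic cells 2 proximal genes were higher in GM and 3 in DM3, with 1 lower, against 3 and 7 distal genes higher and 2 and 1 lower. For this line 12.2% of all tested genes were higher and 14.5% lower in GM, and 19.3% and 20.9% in DM3. On differentiation both stretches rose, with medians of 0.72 proximal and 1.23 distal in control cells. The distal genes also held 88.8% to 95.0% of the summed beta FPM (group means). A given ratio at a low level gives a smaller log2(FPM + 1) change, and the proximal genes were mostly the lower ones, so these counts and medians mix level with position. Some genes had like control GM means, from 0.506 to 0.858 FPM. Of these, proximal Pcdhb2, Pcdhb5 and Pcdhb11 averaged 0.807, 0.465 and 0.507 FPM in MUNC spliced GM against 0.858, 0.506 and 0.584 in control. Distal Pcdhb15 and Pcdhb19 averaged 2.89 and 2.74 FPM against 0.831 and 0.673. Proximal Pcdhb10, near the floor, averaged 0.27 against 0.0512 FPM. What accounts for the uneven placement was not tested.

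Genes around the clusters were called in both directions on differentiation across the lines, whereas against control those called were mostly lower in both MUNC lines. Of 22 listed neighbours, 21 were in the table and 19 tested. On differentiation 2 were higher and 5 lower in control cells (29.6% and 28.6% of all tested genes), 0 and 5 in MUNC spliced cells (17.2% and 18.4%) and 6 and 4 in MUNC genomic cells (26.3% and 25.1%). Against control in GM, 0 were higher and 7 lower in MUNC spliced cells (18.2% and 17.3% of all tested genes) and 0 and 9 in MUNC genomic cells (12.2% and 14.5%). The log2 changes of the tested neighbours in MUNC genomic GM ran from -1.51 to -0.11. Against control in DM3 the counts were 2 and 8 (22.3% and 21.0%) and 1 and 9 (19.3% and 20.9%). Taf7, a subunit gene of the general transcription factor TFIID that lies between the beta and gamma clusters, held 10.9, 8.12 and 6.36 FPM in control GM and 2.92, 2.68 and 1.41 FPM in MUNC genomic GM. It fell by 1.51 on the log2 scale there and by 1.07 in DM3 (limma adjusted p = 0.000179 and 0.0019), and was higher in MUNC spliced than in control DM3 by 0.68 (limma adjusted p = 0.0309).

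The noncoding gene 3222401L13Rik, which lies on the plus strand between Taf7 and the gamma cluster, was picked out after its values had been seen. It held 0.984, 2.44 and 1.01 FPM in MUNC spliced GM and 2.28, 2.30 and 2.19 FPM in DM3, and at most 0.424 FPM in any other library. Its log2 change against control was 1.16 in GM and 1.24 in DM3 (limma adjusted p = 3.39e-05 and 1.05e-05). Gm26672, another gene of the region picked out in this way, had a different pattern. Against control it was higher in MUNC spliced GM by 0.38 (limma adjusted p = 0.018). It was lower in MUNC spliced DM3 by 0.30 and in MUNC genomic DM3 by 0.43 (limma adjusted p = 0.0452 and 0.00616). Both genes passed the filter through groups where they are high, so these calls support nothing. Whether the authors' counting used strand is not given in the sources used here, so antisense reads cannot be told apart from those of the genes they overlap.

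Between lines, the regulators were called in both directions. In GM, 1 of 27 was higher and 4 lower in MUNC spliced than in control cells, and 3 were higher and 2 lower in MUNC genomic cells, where 18.2% and 17.3%, and 12.2% and 14.5%, of all tested genes were. The lowest in both was Tet1, a gene for an enzyme that oxidises methylated cytosine, at -0.60 and -1.15, and the highest Nipbl, which encodes a loader of cohesin, at 0.39 and 0.46. In DM3 the counts were 9 higher and 7 lower for MUNC spliced (22.3% and 21.0% of all tested genes), and 5 higher and 4 lower for MUNC genomic cells (19.3% and 20.9%). Ctcf was higher than control in MUNC spliced DM3 by 0.50 and Dnmt3b by 0.78, and in MUNC genomic DM3 Rad21 was higher by 0.38 and Dnmt3b by 0.50. Against MUNC genomic GM, Smchd1 fell by 0.43 on the log2 scale in MUNC spliced GM.

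Protocadherin-related genes outside the clusters moved in both directions. Of 19 listed, 11 were tested. On differentiation of control cells 4 were higher and 0 lower (29.6% and 28.6% of all tested genes). The counts were 1 and 1 in MUNC spliced (17.2% and 18.4%) and 2 and 2 in MUNC genomic cells (26.3% and 25.1%). Among the 21 clustered members they were 19 and 0, 17 and 0, and 19 and 1. Celsr3, an atypical cadherin gene, had the highest change in control cells at 1.27, and Fat1, a giant cadherin gene, the lowest in MUNC genomic cells at -1.51. Against control in GM the counts were 4 higher and 1 lower for MUNC spliced (18.2% and 17.3% of all tested genes), led by the cadherin gene Fat4 at 1.93. For MUNC genomic they were 3 higher and 1 lower (12.2% and 14.5%), led by Pcdh7 at 2.01. In DM3 they were 3 higher and 3 lower for MUNC spliced (22.3% and 21.0%) and 2 higher and 4 lower for MUNC genomic cells (19.3% and 20.9%). Pcdh9 was highest at 2.28 in MUNC spliced and Pcdh18 lowest at -2.21 in MUNC genomic cells.

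Among 13 genes for signalling or maturation partners of clustered protocadherins, all tested, 0 were higher and 6 lower on differentiation of control cells (29.6% and 28.6% of all tested genes). The lowest was Wasf1, a subunit gene of the WAVE actin regulator, at -0.76. Against control in DM3, 4 were higher and 1 lower in MUNC spliced cells (22.3% and 21.0% of all tested genes) and 8 higher and 2 lower in MUNC genomic cells (19.3% and 20.9%). Marcks, which encodes a membrane-bound substrate of protein kinase C, was the highest in the first, at 1.68, and the lowest in the second, at -1.80. Ptk2b, a kinase gene of the FAK family, was the lowest in MUNC spliced cells at -2.47, and Psen2, a presenilin gene, the highest in MUNC genomic cells at 1.38.

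The authors' deposited tables covered 5 of the 11 comparisons, with DESeq2's column names in their headers. At their adjusted p under 0.05, the authors' deposited table gave 21 members higher and 0 lower on differentiation of control cells, where 43.2% of its genes passed. This share and those that follow pool genes higher and lower, unlike the shares given for limma. For MUNC spliced against control the authors' deposited table gave 12 higher and 0 lower in GM (25.3% of genes) and 9 and 0 in DM3 (33.1%). For MUNC genomic against control it gave 5 higher and 2 lower in GM (19.9% of genes) and 11 and 2 in DM3 (39.3%). Like counts did not mean the same members. Those 11 held Pcdhb16 (adjusted p = 0.000459 in the authors' deposited table) and not Pcdhb8 (0.0517), which limma called.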

How the data were processed

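Polyadenylated RNA of 18 C2C12 libraries was analysed from deposited tables. The submitters' processing notes name STAR, HTSeq, DESeq2 and mm10, without versions or roles. Values of 35275 genes came from a table of library-scaled signal, in FPM, that the authors deposited. A label calls it FPKM, but 100% of its values were whole multiples of 1 step per library (to within 0.0354 of a read), so reads were recovered. The authors also deposited 5 tables of comparisons with log2 fold changes and adjusted p-values, per the file headers. Columns of other samples numbered 0.

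Groups followed the titles; a source label on myoblasts or myotubes went against the title in 9 samples. The members, lists and tests were chosen with earlier results of these data known. Named were the 5 most abundant members per cluster and, per comparison, the called members with the highest and lowest log2 change; per list, the extremes and 7 set genes (Ctcf, Rad21, Smchd1, Dnmt1, Dnmt3a, Dnmt3b, Taf7). Other members named in groups of 5 or fewer, or as exceptions, were chosen after their values were seen. Members outside this rule were refitted with all other genes, but whether each of their calls held under the alternatives was not listed. C-type members had no row of their own. 1 listed regulator that this rule would name is not reported here. The table's older symbols were matched by identifier for 5 listed genes.

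limma 3.58.1 in R 4.3.3 (lmFit, contrasts.fit, eBayes with trend) was fitted to log2(FPM + 1) of 13869 genes, those that reached 0.5 FPM in 3 libraries or more. All 6 groups shared 1 fit with 12 residual degrees of freedom, and p-values were adjusted over all tested genes by Benjamini-Hochberg in each of 11 comparisons. The code was tested on simulated data. Alternatives were a pseudocount of 0.1, filters at 1 FPM and none, 2 scalings, a replicate block, fits of the compared groups alone, each library left out, an absolute log2 change of at least 1, and edgeR 4.0.16 and DESeq2 1.42.0 on recovered reads. edgeR called 8034 genes on differentiation of control cells, against 4111 higher and 3967 lower by limma. No scaling moved the median of all genes by over 0.1. Replicate numbers recur across groups. The main fit had no term for them, so its p-values leave any pairing out, and the replicate block was the alternative that takes it in. Deviations of same-numbered libraries correlated above 0.1 in every pair for 6 of the 9 pairwise comparisons, so the numbers were taken to pair libraries there. The exceptions were differentiation in MUNC spliced cells (lowest 0.0163), in MUNC genomic cells (0.0531) and the lines against each other in DM3 (0.0939). Counting intervals and limits cover counting error only; without molecular identifiers, reads are not independent molecules.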

Additional observations from a re-analysis of the deposited data

Results flagged for a closer look

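Both members below were called by limma's test of whether a line changed on differentiation otherwise than control, fitted over all tested genes. In each test this was 1 of 21 members. Of all tested genes, 7.43% were higher and 6.94% lower for MUNC spliced, and 3.56% and 5.25% for MUNC genomic. Pcdhb13 passed the filter through MUNC spliced libraries alone, so its call supports nothing. For MUNC spliced the interaction of Pcdhb13 was 0.76 on the log2(FPM + 1) scale (adjusted p = 0.0165 by limma), from 0.269 ± 0.354 FPM in GM and 1.18 ± 0.212 in DM3 (SD, n = 3) against 0.00512 ± 0.00887 and 0.0384 ± 0.02 in control. The direction depended on the scale, since edgeR gave -0.25 and DESeq2 -0.56 (adjusted p = 0.871 and 0.86), and as ratios of means DM3 stood 4.37 times above GM in MUNC spliced cells (18.1 without MUNC spliced GM replicate 2) and 7.5 times in control. All 3 control GM libraries together held 1 read, and 37 of the reads of MUNC spliced GM were in replicate 2, with 3 in each other replicate.

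For MUNC genomic the interaction of Pcdhb12 was 0.85 (adjusted p = 0.01 by limma), from 0.569 ± 0.232 FPM in GM and 3.58 ± 0.385 in DM3 against 0.193 ± 0.0358 and 0.94 ± 0.0966 in control. As ratios of means, DM3 stood 6.29 times above GM in MUNC genomic cells and 4.88 times in control, and neither edgeR nor DESeq2 called the difference (adjusted p = 0.66 and 0.722).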

How the results depend on the processing

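The counts of members called in the 9 pairwise comparisons stayed within 1.5 times under every alternative, apart from the further criterion of an absolute log2 change of at least 1 and 2 left-out libraries. With that criterion the counts became 10 (control, DM3 against GM), 7 (MUNC spliced, DM3 against GM), 6 (MUNC spliced against control in GM), 1 and 4 (MUNC genomic against control in GM and in DM3), 7 and 1 (MUNC spliced against MUNC genomic in GM and in DM3) and 0 for both interactions, as a stricter criterion must lower them. Leaving out 1 library each gave 5 to 8 for MUNC genomic against control in GM, 1 to 2 for the MUNC spliced interaction (2 without control GM replicate 2, MUNC spliced GM replicate 1 or MUNC spliced DM3 replicate 3) and 1 to 3 for the MUNC genomic interaction (3 without MUNC genomic GM replicate 2, 2 without its replicate 3). The MUNC spliced interaction gave 0 members at a filter of 1 FPM, which removes Pcdhb13, 0 with the compared groups alone and 2 with equal sums. The MUNC genomic interaction gave 0 at a pseudocount of 0.1, 2 with quantile normalization and 0 by edgeR and by DESeq2. The interaction of Pcdhb13 turned to -0.25 by edgeR and -0.56 by DESeq2, on a scale without the added 1 FPM; the cause was not tested further.

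With the replicate number as a block each interaction gave 3 members. Pcdhb15 (adjusted p = 0.0214 by limma) and Pcdhb17 (0.0482) were added for MUNC spliced, and Pcdhb10 (0.0442) and Pcdhb20 (0.0303) for MUNC genomic. The block also added Pcdhb18 and Pcdhb20 to MUNC spliced against MUNC genomic in DM3. Over the calls of named members, 1230 alternative values kept the direction and the call, 74 lost the call and 2 turned.

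Depth limits the low members. At 3 reads or fewer in control, as for Pcdhb13, a ratio of means rests on single reads.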
